A study of Mus musculus with 6 samples.

Results

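The nucleolar ribosome biogenesis genes are 36 named genes whose products transcribe, modify, cleave and fold ribosomal RNA in the nucleolus. A gene was measured where the platform annotation gave a probe set that gene's symbol alone, and the probe set with the highest mean log2 signal over the 6 arrays stood for the gene. This gave 35 of the 36 genes, among 11645 genes tested in all, and Npm3 was not analysed here. The samples were megakaryocyte progenitors from C57BL/6 mice of the GATA1s genotype, sorted as lineage-negative, Sca-1-negative cells positive for c-kit, CD150 and CD41. The GATA1s allele, which gives an amino-terminally shortened GATA1 transcription factor, was shared by all samples, so no value below separates its effect. The groups were bone marrow of adult mice aged 12 to 18 weeks (3 arrays) and fetal liver at E13.5 (3 arrays), so tissue and age cannot be told apart. The number of animals behind each sample is not given in its labels, which number them as biological replicates. The comparison asked how the expression of these genes differed between adult and fetal progenitors of this genotype.

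Ribosome production starts with RNA polymerase I, which transcribes a long precursor from the ribosomal DNA repeats inside the nucleolus. Small nucleolar ribonucleoproteins (snoRNPs) then guide its chemical modification, box C/D particles for methylation of the ribose and box H/ACA particles for pseudouridine. The small subunit processome and a separate series of large subunit assembly factors cleave and fold the precursor and are released before the subunits leave the nucleus. Growing and dividing cells make many ribosomes, and the transcription factor MYC with its partner MAX is known to raise transcription of many of these genes through the E-box CACGTG.

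RefSeq start-site windows (GRCm38.p6, 250 bases before to 50 after each annotated start) were available for 31 of the 35 measured genes. They were searched for CACGTG, the motif named above, which reads the same on both strands. It stood in 7 of the 31 windows (22.6%), against 11.8% of the 9502 tested genes with a window and 8.09% of all 27025 genes in the table. The difference between these shares was not tested. The stretches of up to 30 bases around it are given 5′ to 3′ on the gene's strand, with the motif in capitals and cut where the window ends. The last line shows, in lower case, the 30 bases before the transcript start that this window uses for Nop16, the gene with the largest called difference on the brightest probe sets, whose window held no such motif.
Imp4, chr1:34439696-34439725, plus strand: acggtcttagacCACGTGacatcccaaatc
Nop2, chr6:125131811-125131840, plus strand: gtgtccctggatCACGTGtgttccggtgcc
Pes1, chr11:3963965-3963994, plus strand: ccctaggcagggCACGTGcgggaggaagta
Wdr43, chr17:71616220-71616249, plus strand: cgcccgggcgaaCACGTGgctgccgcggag
Tsr1, chr11:74898092-74898121, plus strand: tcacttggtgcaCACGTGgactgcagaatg
Utp20, chr10:88826765-88826789, minus strand: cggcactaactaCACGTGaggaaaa
Mybbp1a, chr11:72441355-72441376, plus strand: gtcttctgagccCACGTGtttg
Nop16, chr13:54590075-54590104, minus strand: ctactaaaactacatttcccaagaatcctt

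The motif lay upstream of the annotated start in Imp4 and Nop2, beginning at base -121 and base -60, and within the transcribed bases in the other 5 genes. Of the 11 genes with a window that differed between the tissues in the test below, 2 held it (Imp4 and Nop2), and of the 20 that did not pass, 5 held it. A match describes these letters only and is not evidence of binding.

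All 35 measured genes were expressed in both tissues. Their signals ran from 382 to 9593 over all arrays, against a background of 10.6 set by bacterial control probe sets, and no array of any member lay at or below that level. The signal is the MAS5 value, a linear brightness per probe set that is scaled to the same trimmed mean of 500.0 on every array. Signals of different genes come from different probes and were not compared with each other. Over the 35 members the median of the gene means was 3032 for bone marrow and 3389 for fetal liver.

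The differences between tissues were small and ran almost all one way. In limma's test, 12 of 35 genes (34.3%) were lower in bone marrow and 0 were higher at an adjusted p under 0.05 (Benjamini-Hochberg over all genes tested), against 17.8% lower and 18.3% higher among all genes tested. Among the 6988 tested genes at least as bright as the dimmest member, 20.6% were lower and 12.4% higher. The log2 fold change, bone marrow minus fetal liver throughout, was below 0 for 34 of 35 members, and the exception was Nolc1. It was below 0 for 54.3% of all genes tested and 61.5% of the equally bright genes. The members' values ran from -0.49 for Nop16 to 0.06 for Nolc1, with a median of -0.20, beside a median of -0.04 over all genes tested and -0.08 over the equally bright genes. On these brightest probe sets no member differed by more than 1.5-fold. All 3 bone marrow arrays lay below all 3 fetal liver arrays for 18 of 35 members, and all 3 lay above for 0, while 26.7% of all genes tested were separated in the lower direction and 23.7% in the higher. The genes were listed with earlier results of these arrays known, so no test of the group as a whole was made.

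**Figure D1:**
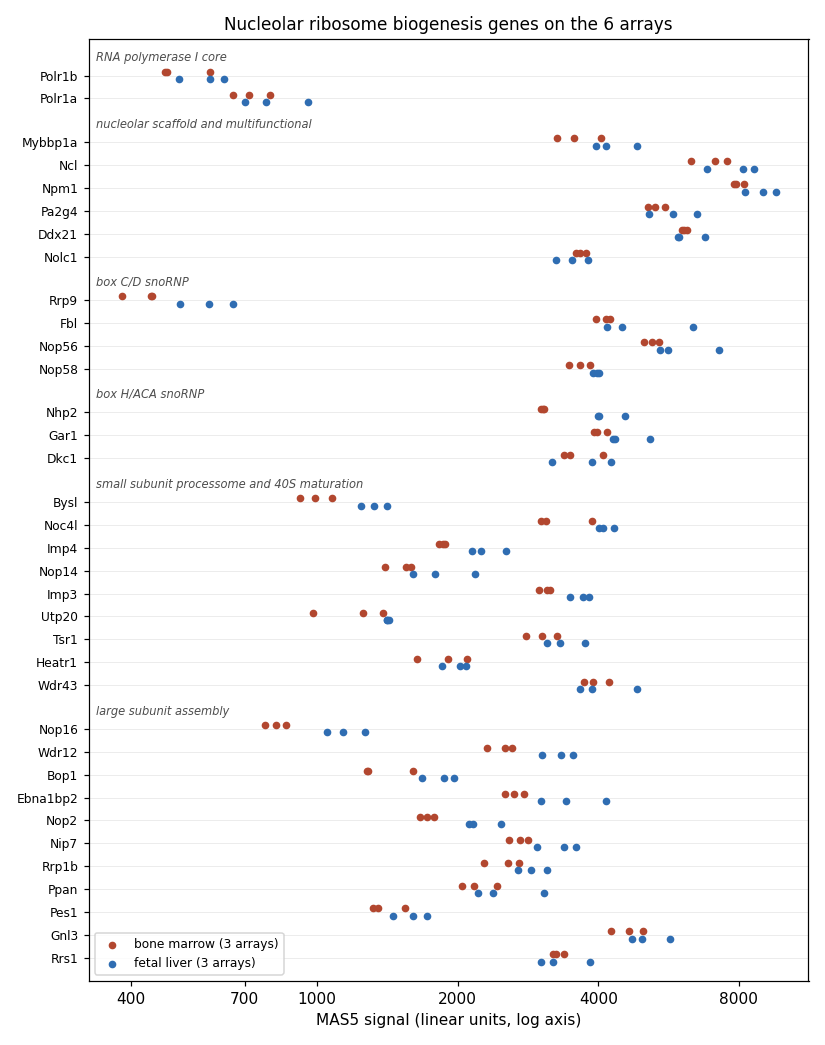
MAS5 signal (log axis) of each of the 35 members on each array, with bone marrow points (red, upper) and fetal liver points (blue, lower) in every row and the genes grouped by role. Signals lie between 382 and 9593, and the bone marrow points sit wholly to the left of the fetal liver points for 18 genes.

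Other features of the samples moved with tissue as well. Log2 signals of the genes tested correlated at 0.977 to 0.989 (Pearson's r) between arrays of the same tissue and at 0.846 to 0.885 across tissues, over genes that are not independent replicates. The 7 megakaryocyte markers measured were above background in both tissues, with 1 lower and 1 higher in bone marrow and summed signals of 22060.1 to 24194, against 16483 to 28045 in fetal liver. Of 11 mitosis genes 9 were lower in bone marrow and 0 higher, and the list summed to 32161 to 35794 in bone marrow, against 44878 to 49390.2 in fetal liver. Markers of other cells mostly ran the opposite way. All 11 granulocyte and monocyte markers were higher in bone marrow, with summed signals of 55303 to 66951 in bone marrow and 7273 to 9206 in fetal liver. Of the lymphoid markers 5 of 6 tested were higher in bone marrow (sums of 3134 to 4616, against 1284 to 1493 in fetal liver), as were 4 of 5 mast cell and basophil markers (10260.3 to 10739, against 6196 to 7124), 5 of 5 macrophage markers (2195 to 2636, against 312 to 396) and 3 of 5 erythroid markers (3860.4 to 9943, against 2163 to 2808), with 1 erythroid marker lower. Gata2, the uncalled mast cell and basophil marker, averaged 6754 in bone marrow and 6552 in fetal liver, most of that list's sum in both tissues. Cd79b, the uncalled lymphoid marker, averaged 1482 in bone marrow and 1268 in fetal liver, most of the lymphoid sum in fetal liver. In fetal liver the lymphoid markers Cd79a, Cd3e and Rag1, the basophil markers Mcpt8 and Fcer1a and the macrophage markers C1qa, C1qc and Vcam1 lay at or below the background. Endothelial markers were lower in bone marrow in 3 of 4 cases (1929 to 2194, against 3341 to 4276), and of 4 hepatoblast markers 2 were higher and 1 lower (1891 to 2088, against 640.1 to 949). Krt18, a keratin, averaged 1647 in bone marrow and 605 in fetal liver, most of the hepatoblast sum in both tissues. Afp, also higher, averaged 221 and 62.6, and Apoa2, the lower one, averaged 15.2 in bone marrow and 45.4 in fetal liver. Hba-a1 lay at or below the background in both tissues, Alb in bone marrow and Hnf4a in fetal liver. The ratio of 3′ to 5′ probe sets, a measure of RNA integrity, was 1.39 to 1.58 in bone marrow and 1.32 to 1.38 in fetal liver for Gapdh, while for Actb the tissues overlapped at 1.30 to 1.42 in bone marrow and 1.31 to 1.33 in fetal liver. The part of cycling state, other cells and RNA quality in the members' differences was not tested, and in RNA from sorted pools fewer cells of a type and less RNA per cell cannot be told apart.

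The arrays did not contribute equally. Relative to each gene's own mean over 6 arrays, the median member stood at -0.17, -0.05 and -0.14 log2 units on bone marrow replicates 1, 2 and 3, and at 0.12, 0.23 and 0.03 on fetal liver replicates 1, 2 and 3. Fetal liver replicate 2 was the highest of all 6 arrays for 22 members and bone marrow replicate 1 the lowest for 16. The median of all genes tested stayed between -0.03 and 0.02 on every array. Without bone marrow replicate 3, 4 members passed (11.4%), against 10.9% of all genes tested, and without bone marrow replicate 1, 5 passed (14.3%), against 13.4%. In both fits the members' share was thus close to that of all genes. Without fetal liver replicate 3, 6 members passed (17.1%, against 11.5%), and without fetal liver replicate 2, 7 of 35 passed, against 14.4%. Without bone marrow replicate 2, 8 passed (22.9%, against 13.2%), and without fetal liver replicate 1, 10 passed (28.6%, against 18.8%). The members' median stayed between -0.26 and -0.16 in these 6 fits. The call held under 16 of the 17 alternatives for Wdr12 and under 15 for Bysl, which lost it without bone marrow replicate 3 and without fetal liver replicate 3. It held under 12 for Bop1 and Ebna1bp2, 10 for Imp4, 9 for Imp3 and 8 for Nip7 and Noc4l, and each of these 6 genes lost it without bone marrow replicate 1 and without bone marrow replicate 3. In none of the fits that left out an array was a member higher in bone marrow.

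**Figure D2:**
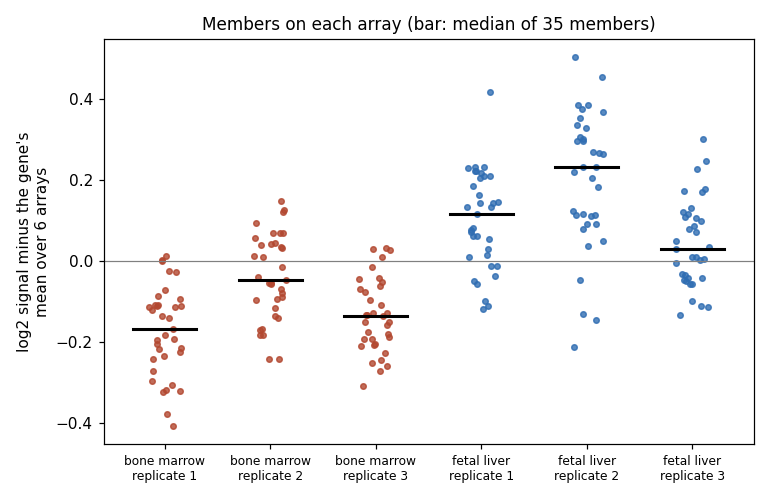
Log2 signal of each member minus that gene's mean over the 6 arrays, by array, with bone marrow in red and fetal liver in blue. Points are the 35 members and the black bar is their median, which is -0.17, -0.05 and -0.14 on the bone marrow arrays and 0.12, 0.23 and 0.03 on the fetal liver arrays.

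The catalytic core of RNA polymerase I did not pass the test. Polr1a, the largest subunit, had signals of 714, 792 and 661 in bone marrow and 702, 957 and 778 in fetal liver. The arrays of the tissues overlapped, and the log2 fold change was -0.16 ± 0.14 (SE, adjusted p = 0.411). Polr1b, the other large core subunit, overlapped as well. Its signal averaged 513 ± 66.4 for bone marrow and 575 ± 64.3 for fetal liver (mean ± SD of 3 arrays per tissue), with a log2 fold change of -0.17 ± 0.15.

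Among the nucleolar scaffold and multifunctional proteins, 0 of the 6 measured passed the test on their brightest probe set. Npm1 encodes nucleophosmin, a histone and ribosome assembly chaperone that organises the outer nucleolus. Its signals were 7821, 7894 and 8191 on the bone marrow arrays and 9593, 8988 and 8234 on the fetal liver arrays. Every bone marrow array lay below every fetal liver array, by a narrow margin, and the log2 fold change of -0.16 ± 0.07 missed the threshold (adjusted p = 0.104). Ncl, which encodes nucleolin, a multifunctional binder of precursor ribosomal RNA, averaged 6992 ± 615 in bone marrow and 7866 ± 923 in fetal liver (log2 fold change -0.17 ± 0.10). Mybbp1a, a nucleolar MYB-binding protein, stood at -0.25 ± 0.11 (adjusted p = 0.0923). Pa2g4, a growth-regulated nucleolar protein, had a log2 fold change of -0.12 ± 0.09. Ddx21, an RNA helicase that acts with RNA polymerase I, was at -0.02 ± 0.07. Nolc1, a phosphoprotein that chaperones snoRNPs, was at 0.06 ± 0.08 on its brightest probe set, a value that its other probe sets do not share, as described below.

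In the box C/D snoRNP, 1 of 4 genes was lower in bone marrow on the brightest probe sets. Rrp9, the protein that recognises the U3 RNA required for early cleavage, had signals of 382, 441 and 444 in bone marrow and 662, 508 and 588 in fetal liver. The tissues did not overlap, and the log2 fold change was -0.47 ± 0.14 (adjusted p = 0.0323). The call was lost under 6 of 17 alternatives, 5 of them fits without an array. The core proteins shared by all box C/D particles did not pass on their brightest probe sets. Nop56 had signals of 5000.2, 5402 and 5206 in bone marrow and 5650, 7246 and 5424 in fetal liver, where replicate 2 stood above the rest (log2 fold change -0.22 ± 0.11, adjusted p = 0.144). A second Nop56 probe set of nearly the same brightness gave 5108, 5072 and 4937 in bone marrow and 5942, 6812 and 5895 in fetal liver. It was lower in bone marrow (-0.30 ± 0.08, adjusted p = 0.0166 in the limma fit of all probe sets), so the call for Nop56 is not settled. Fbl, fibrillarin, the methyltransferase itself, showed the same array on top, with 4162, 4232 and 3956 in bone marrow and 4169, 6378 and 4488 in fetal liver. Its groups overlapped, at -0.26 ± 0.14 (adjusted p = 0.187). Nop58, the other scaffold of the particle, was at -0.12 ± 0.07 with non-overlapping arrays.

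In the box H/ACA snoRNP, Nhp2 was lower in bone marrow and its partners did not pass. Nhp2, a core RNA-binding protein of the particle that is also a telomerase component, had signals of 3066, 3014 and 3045 in bone marrow and 3990, 4551 and 4018 in fetal liver. The gap between the tissues was far wider than the spread in bone marrow. The log2 fold change was -0.46 ± 0.08, the smallest adjusted p of the members (0.00207), and the call held under all 17 alternatives. Gar1, another core protein, had signals of 3969, 4184 and 3917 in bone marrow and 4344, 5165 and 4308 in fetal liver. Its arrays did not overlap either, but the log2 fold change of -0.19 ± 0.09 missed the threshold (adjusted p = 0.123). Dkc1, dyskerin, the pseudouridine synthase, overlapped between tissues at 3644 ± 386 in bone marrow and 3771 ± 540 in fetal liver (log2 fold change -0.04 ± 0.12).

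Of 9 genes of the small subunit processome and later small subunit maturation, 4 were lower in bone marrow. Bysl, bystin, which is needed to finish the small subunit, had signals of 917, 1075 and 992 in bone marrow and 1326, 1242 and 1414 in fetal liver (-0.42 ± 0.11 on the log2 scale, adjusted p = 0.0149). Noc4l, a partner of Nop14 in the processome, had 3014, 3883 and 3091 in bone marrow and 4089, 4004 and 4331 in fetal liver. Bone marrow replicate 2 came close to the fetal liver arrays there, and the log2 fold change was -0.32 ± 0.10 (adjusted p = 0.0385). Imp4 and Imp3 hold the U3 RNA to the precursor. Imp4 had signals of 1883, 1820 and 1863 in bone marrow and 2148, 2537 and 2238 in fetal liver, at -0.31 ± 0.09 (adjusted p = 0.0273). Imp3 had 3111, 2988 and 3148 in bone marrow and 3716, 3815 and 3481 in fetal liver, at -0.25 ± 0.08 (adjusted p = 0.0290). All 4 were separated between the tissues on every array.

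The remaining 5 small subunit genes did not pass the test. Nop14 (log2 fold change -0.29 ± 0.12, adjusted p = 0.103) and Utp20 (-0.24 ± 0.13), both processome proteins, had non-overlapping arrays. For Utp20 the fetal liver signals were nearly equal (1415 ± 8.11), and the bone marrow signals spread more widely (1207 ± 207). Tsr1, a GTPase-like factor of late maturation, was at -0.16 ± 0.10. Heatr1, which links transcription of the precursor with its processing, was at -0.08 ± 0.11. Wdr43, another member of that early module, had signals of 3718, 4207 and 3895 in bone marrow and 3878, 4832 and 3657 in fetal liver, with overlapping groups (-0.06 ± 0.11, adjusted p = 0.721).

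Large subunit assembly, the role group with the most members, also held the most calls. Of its 11 genes 6 were lower in bone marrow, beside 17.8% of all genes tested, and its median log2 fold change was -0.29. Differences between the role groups were not tested. Nop16, a nucleolar assembly protein, had signals of 775, 818 and 857 in bone marrow and 1136, 1264 and 1053 in fetal liver. On this probe set the groups were well separated, and the log2 fold change was -0.49 ± 0.11 (adjusted p = 0.00845), a call held under all 17 alternatives. A second Nop16 probe set of nearly the same brightness gave 838, 1049.7 and 835 in bone marrow and 1042, 937 and 969 in fetal liver. Its arrays overlapped, and it was not called (-0.12 ± 0.13, adjusted p = 0.518), so the size for Nop16 is not settled. Wdr12 and Bop1 are subunits of the PeBoW complex, in which they act with Pes1. Wdr12 had 2315, 2520 and 2618 in bone marrow and 3334, 3534 and 3036 in fetal liver (-0.41 ± 0.09 on the log2 scale, adjusted p = 0.00743). Bop1 had 1277, 1605 and 1284 in bone marrow and 1869, 1961 and 1679 in fetal liver, so that bone marrow replicate 2 lay just under the lowest fetal liver array (-0.41 ± 0.12, adjusted p = 0.0252). Pes1 did not pass, with 1353, 1539 and 1316 on the bone marrow arrays and 1454, 1718 and 1608 on the fetal liver arrays (-0.18 ± 0.11, adjusted p = 0.212). A difference between Pes1 and its partners was not tested.

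Ebna1bp2, a nucleolar factor of early large subunit assembly, had signals of 2639, 2768 and 2520.3 in bone marrow and 3013, 4164 and 3419 in fetal liver. Fetal liver replicate 2 was again the highest, and the log2 fold change was -0.41 ± 0.12 (adjusted p = 0.0244). Nop2, a methyltransferase of large subunit ribosomal RNA and a classical proliferation antigen, stood at 1721 ± 59.4 in bone marrow and 2249 ± 199 in fetal liver (-0.38 ± 0.09, adjusted p = 0.0124), and kept its call under all 17 alternatives. Its highest adjusted p in these limma fits was 0.0499999, just under the threshold. Nip7, which acts in precursor processing, had 2571, 2823 and 2714 in bone marrow and 2956, 3579 and 3373 in fetal liver on its brightest probe set (-0.29 ± 0.09, adjusted p = 0.0394). The genes of this group that did not pass were Pes1, Rrp1b at -0.20 ± 0.10, Ppan at -0.19 ± 0.13, Gnl3 and Rrs1 at -0.03 ± 0.10. Gnl3, nucleostemin, is a nucleolar GTPase of stem and cancer cells. It had signals of 4251, 4977 and 4652 in bone marrow and 4963, 5703 and 4723 in fetal liver, with overlapping groups (-0.15 ± 0.09, adjusted p = 0.254).

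**Figure D3:**
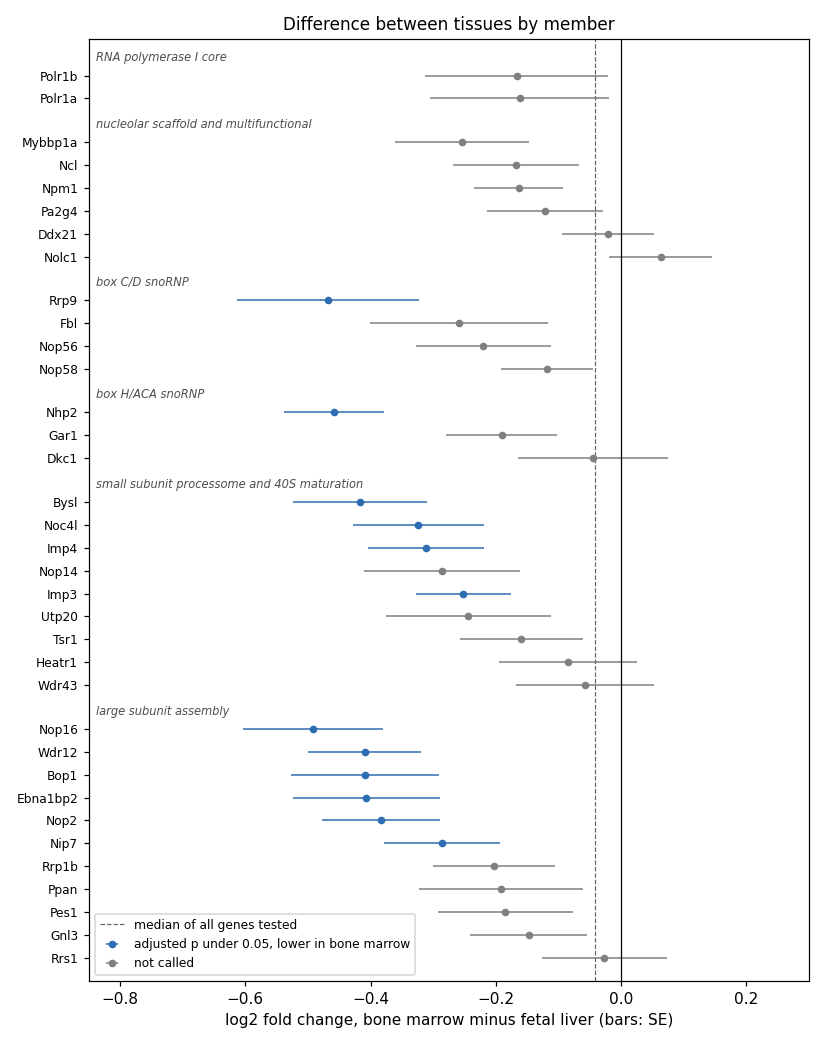
Log2 fold change of each member, bone marrow minus fetal liver, with its SE from the limma fit, grouped by role. Blue marks the 12 genes that were lower in bone marrow at an adjusted p under 0.05, grey the 23 that did not pass, and the dashed line is the median of all genes tested (-0.04).

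For 25 of the 35 members more than 1 probe set passed the filter on low signal, and testing each probe set on its own gave 73 values. Of these 23 were lower in bone marrow and 1 was higher, against 13.9% lower and 15.3% higher among the 20887 single-gene probe sets at least as bright as the dimmest of them. For 6 members (Mybbp1a, Ncl, Nolc1, Nop56, Pa2g4 and Wdr43) the brightest probe set did not pass while a dimmer one was lower, so 18 members had at least 1 probe set lower in bone marrow. A gene with several probe sets has more chances of a call, and the same share over all genes was not counted. The 18 therefore cannot be set against the shares per probe set. The reverse held for 6 others, called lower on the brightest probe set and not called on the dimmer one. The dimmer values were -0.33 for Bysl, -0.17 for Wdr12, -0.12 for Nop16, -0.10 for Ebna1bp2, -0.08 for Imp4 and 0.09 for Bop1.

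Nolc1 showed the widest contrast of these, and its probe sets were picked out after their values were seen. Its brightest probe set gave 3585, 3763 and 3652 in bone marrow and 3796, 3243 and 3506 in fetal liver. Its second gave 1946, 1840.3 and 1849 in bone marrow and 2528, 2649 and 2598 in fetal liver, with no overlap (log2 fold change -0.46 ± 0.08, adjusted p = 0.00284). The dimmest of its 3 was at -0.48 ± 0.18 (adjusted p = 0.0709). For Wdr43 the second probe set was at -0.41 ± 0.11 (adjusted p = 0.0185), against -0.06 on the brightest.

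Nip7 was the only member with calls in both directions. Its brightest probe set was lower in bone marrow (-0.29 ± 0.10, adjusted p = 0.0480 in the fit of all probe sets). Its other probe set gave 1704, 1627 and 1608 in bone marrow and 1397, 1241 and 1385 in fetal liver, higher in bone marrow by 0.30 ± 0.10 (adjusted p = 0.0481). The direction for Nip7 is therefore not settled. Nhp2 and Noc4l were called on all of their probe sets, Nhp2 at -0.46 and -0.76 and Noc4l between -0.49 and -0.32. Of the 35 probe sets used, 9 carry the suffix by which the manufacturer marks probes shared between transcripts (s) or open to cross-hybridisation (x), among them those of Nhp2 and Noc4l, so these may detect more than the named gene. In the RefSeq annotation another coding gene overlaps Nhp2 (Rmnd5b), Wdr12 (Carf), Bop1 (Mroh1 and Scx), Ebna1bp2 (Cfap57) and Bysl (Ccnd3) among the called members, and Nop56, Dkc1, Gnl3, Mybbp1a and Tsr1 among the others. The part of shared probes or overlapping genes in these differences was not tested.

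**Figure D4:**
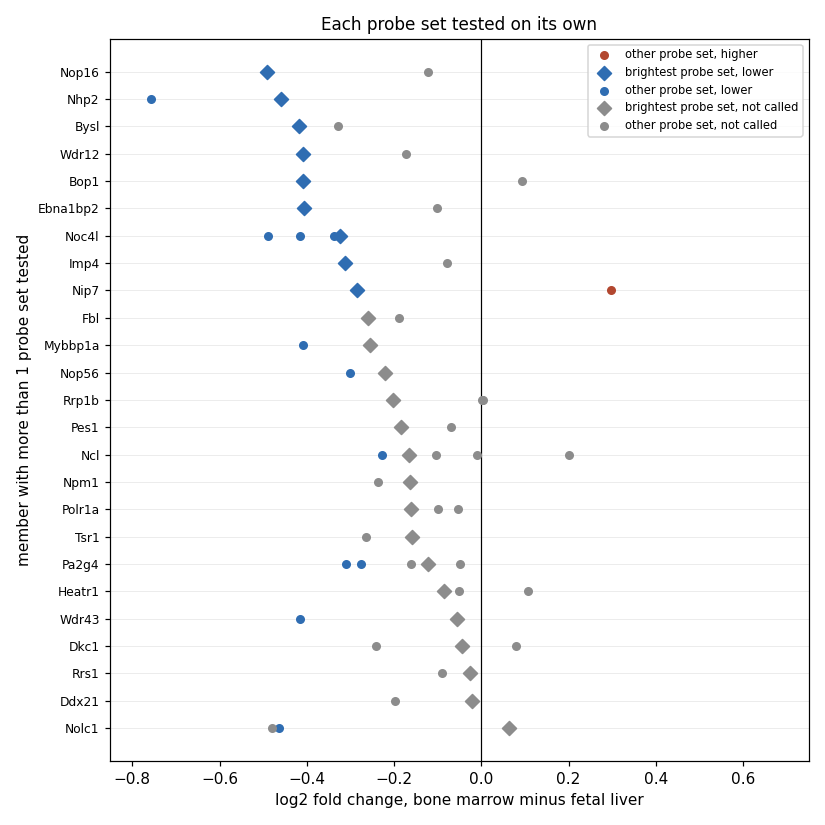
Log2 fold change, bone marrow minus fetal liver, of every probe set tested for the 25 members with more than 1. Diamonds are the brightest probe set and circles the others, blue is lower in bone marrow, red higher and grey not called. Nip7 carries the single red point (0.30), and Nolc1 spans -0.48 to 0.06.

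How many members passed depended on the scaling. Quantile normalization left 9 members lower in bone marrow, against 20.2% of all genes tested. Centring each array on the median of the genes tested, an alternative chosen after seeing the data, gave 13 members, against 22.2% of all genes. Centring on the median of all probe sets, most of them dim, shifted the median of all genes to -0.38 and called 33 members lower, with 46.2% of all genes lower and 11.6% higher. The members' median minus that of all genes was -0.16 log2 units in the scaling as deposited and -0.09 under quantile normalization. Both centrings shift every gene on an array by the same amount, so they could not change this difference. Without the trend of variance on intensity 6 members passed, against 14.6% of all genes.

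Several members host small nucleolar RNA genes, which are released from introns of longer transcripts. In the RefSeq annotation (GRCm38.p6) 8 of the 35 members contain annotated snoRNA genes (22.9%), against 2.31% of the 11624 tested genes with a location. They are Nop56 with 5 such genes, Nop58 with 4, Gnl3 and Wdr43 with 3 each, Ncl and Ppan with 2 each, and Dkc1 and Tsr1 with 1 each. On the brightest probe sets 0 of the 8 hosts passed limma's test, beside 42 of the 268 hosts among all genes tested, and the 12 genes lower in bone marrow were among the other 27. Of the hosts, Ncl, Nop56 and Wdr43 had a dimmer probe set that was lower in bone marrow. The median log2 fold change was -0.15 for the 8 hosts, -0.25 for the other 27 members and -0.07 for all 268 hosts. This division was made after the values were seen, and the difference between hosts and others was not tested.

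Other genes of the pathway, taken from a list of 128 names of which 126 were tested, were also lower more often than higher. Of the 126, 36 (28.6%) were lower in bone marrow and 3 (2.38%) higher, beside 17.8% lower and 18.3% higher among all genes tested. Their median log2 fold change was -0.21, against -0.04 for all genes, and 104 of them (82.5%) had a value below 0, against 54.3% of all genes tested. On the list for the small subunit processome and later small subunit maturation 14 of 40 were lower and 2 higher. On the list for large subunit assembly and export 13 of 49 were lower and 0 higher. A place on a list was assigned by gene name and does not settle which subunit a gene acts on. Of 14 nuclear exosome genes, which trim and degrade the precursor, 5 were lower and 0 higher, and all 14 values were below 0. Of 9 snoRNP assembly genes 3 were lower. Of 14 other RNA polymerase I subunits and factors, a list that holds Myc, 1 was lower and 1 higher.

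Wdr18 and Pelp1 belong to a complex that removes a spacer from the large subunit precursor. Wdr18 averaged 346 ± 33.5 in bone marrow and 700 ± 25.9 in fetal liver (-1.02 ± 0.13 on the log2 scale, adjusted p = 0.000338). A second probe set of Wdr18 was at -0.19 and was not called. Pelp1 was at -0.64 ± 0.13, and Ddx56, a helicase of the same subunit, at -0.47 ± 0.10. The mean of the probe sets turned the direction of Pelp1 (0.14). In the small subunit list Nop9 (-0.56 ± 0.10), Rrp8 (-0.55 ± 0.10) and the helicase Ddx47 (-0.43 ± 0.08) were lower, although the mean of its probe sets put Ddx47 at 0.15. The exosome subunits Exosc3 (-0.62 ± 0.14), Exosc9 (-0.46 ± 0.09) and Exosc8 (-0.35 ± 0.07) were lower too, although a second probe set of Exosc8 was at 0.26 and was not called. Of the snoRNP assembly factors Ruvbl1 (-0.44 ± 0.10), Znhit6 (-0.40 ± 0.08) and Znhit3 (-0.37 ± 0.09) were lower, and Polr1d, a subunit shared by RNA polymerases I and III, passed narrowly at -0.25 ± 0.09 (adjusted p = 0.0499).

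The 3 pathway genes higher in bone marrow were Myc, Krr1 and Utp14b. Myc, which encodes the transcription factor named above, had signals of 2973, 3386 and 3155 in bone marrow and 1910, 1982 and 1333 in fetal liver. The groups were far apart, and the log2 fold change was 0.88 ± 0.15 (adjusted p = 0.00160), opposite in sign to 34 of the 35 members. It stayed between 0.55 and 1.11 and passed the test under all 17 alternatives. Krr1, a processome protein, had 4364, 4528 and 4504 in bone marrow and 2342, 2178 and 2223 in fetal liver (0.99 ± 0.07, adjusted p = 1.46e-05). Its 3 other probe sets were at 0.36, 0.15 and -0.06, and RefSeq places it over part of Glipr1, so the size for Krr1 is not settled. Utp14b, a processome gene, had 433, 195 and 244 in bone marrow and 90.6, 92.9 and 109.9 in fetal liver (1.49 ± 0.29). It lies in the same stretch of the genome as Acsl3 in RefSeq, and which transcript was detected was not tested.

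**Figure D5:**
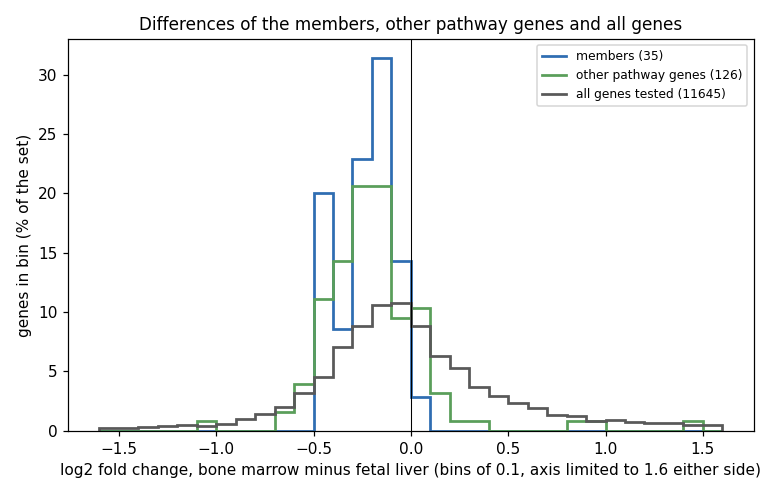
Share of genes in each bin of log2 fold change, bone marrow minus fetal liver, for the 35 members (blue), the 126 other pathway genes (green) and all 11645 genes tested (grey), with bins of 0.1 and the axis limited to 1.6 on either side. The members lie between -0.49 and 0.06 and their median is -0.20, against -0.04 for all genes.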

How the data were processed

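Expression was measured on 6 Affymetrix mouse arrays, 3 per tissue. The authors deposited a linear intensity for every probe set on each array, and the submitters' processing notes name MAS5 without a version. The number of arrays limits the precision: an exact permutation test of 3 against 3 cannot go below 0.1, and none was used. No label ties the samples to separate animals, so p-values measure only the spread between these samples.

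Of 45037 probe sets that were not controls, the platform annotation gave 34945 a single gene symbol, 932 more than 1, and 9160 no symbol. Signals were log2-transformed with no offset, and probe sets with a mean log2 signal above the 40th percentile (a signal of 22.9) were kept. All 35 measured members passed this filter. A linear model with a tissue term alone was fitted in limma 3.58.1 (R 4.3.3), its variance prior following intensity. Benjamini-Hochberg adjustment ran over 11645 genes, with a threshold of 0.05. Background was the 95th percentile of 27 bacterial control probe sets. On simulated data of 11645 genes 37 of 100 genes given a 1.32-fold change were called, 83 of 100 given a 2-fold change, and 9 of 11445 left unchanged. The simulated noise was independent between genes, and a far smaller share of genes differed than was called in the real data. These rates therefore need not hold for the real data.

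Members were the genes on the list; values on every array are given for called members (up to 4 per role with the largest change), the brightest uncalled member of each role and any member with opposite calls, and pathway genes are the 3 with the smallest adjusted p per list and direction. The members, lists and rules were chosen with earlier results of these data known. Promoter sequences and gene locations are from RefSeq, GRCm38.p6. Python 3.11.15 and pandas 2.3.3 made the tables.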

Additional observations from a re-analysis of the deposited data

How the results depend on the processing

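The members' median log2 fold change kept its sign under every alternative, between -0.54 (centring on the median of all probe sets) and -0.16, and ran from -0.26 to -0.16 when an array was left out. Changes of the filter, the intensity trend, a robust variance prior and the replicate block leave each member's log2 fold change as it was. Those alternatives could not turn the sign. The count of members lower in bone marrow, 12 as reported, was 33 under that centring, 6 without the intensity trend and 4 to 10 when an array was left out, where 10.9% to 18.8% of all genes tested were lower. The 4 members without bone marrow replicate 3 (11.4%) and the 5 without bone marrow replicate 1 (14.3%) were close to the shares of all genes in those fits, 10.9% and 13.4%. Testing each probe set on its own gave 23 lower and 1 higher. Non-overlapping members numbered 32 under that centring, against 18. The share of non-overlapping genes over all genes was not counted there, and that centring called 46.2% of all genes tested lower. Other pathway genes lower in bone marrow, 36 as reported, numbered 104 under that centring and 17 to 35 when an array was left out. Those higher, 3 as reported, numbered 7 with the mean of probe sets and 5 with array weights. In those fits 19.1% and 24.4% of all genes tested were higher. Deviations of same-numbered arrays of the tissues correlated across genes at r = -0.08, 0.07 and -0.11 for numbers 1, 2 and 3. Differently numbered arrays correlated at -0.05 to 0.14. From 3 arrays per tissue it cannot be told whether same-numbered arrays shared a litter, day or batch. With the replicate number as a block, 10 members were lower in bone marrow and 0 higher, against 15.9% lower and 17.1% higher among all genes tested. In that fit Rrp9, Noc4l and Imp3 lost their calls, and Mybbp1a gained one. Of 595 member values under alternatives, 499 kept direction and call, 51 lost a call, 27 gained one and 18 turned direction. These values include the alternatives that leave the log2 fold change as it was, where no direction could turn. Quantile normalization turned Ddx21 (0.0664), Dkc1 (0.0204), Rrs1 (0.0411) and Wdr43 (0.0393). Array weights turned Ddx21 (0.0287), Heatr1 (0.0021), Ncl (0.0106), Rrs1 (0.0266) and Wdr43 (0.0424). Fits without an array also turned some uncalled members. Over those fits Ddx21 ran from -0.0542 to 0.0415, Rrs1 from -0.0987 to 0.0757 and Dkc1 from -0.1606 to 0.0472, each highest without fetal liver replicate 1. Heatr1 ran from -0.1665 to 0.0110 (highest without bone marrow replicate 1) and Wdr43 from -0.1377 to 0.0632 (highest without fetal liver replicate 2). Dkc1 was at 0.0085 without bone marrow replicate 3. Nolc1 turned to -0.27 under that centring and to -0.29 with the mean of probe sets, which also turned Nip7 (0.0060), a called member. Among pathway genes Ddx47 (0.15) and Pelp1 (0.14) turned with the mean of probe sets. Of the 12 called members, only Nhp2, Nop16 and Nop2 kept their calls under all 17 alternatives. Their highest adjusted p values in these limma fits were 0.0138, 0.0344 and 0.0499999, so Nop2 did so only narrowly. The cause of these changes was not tested, except that fits without an array rest on fewer samples.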
